A study of Mus musculus with 6 samples.

Results

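The genes described here are 8 genes grouped as protease inhibitors, of which 1, *Serpinf1*, belongs to an inhibitor family but inhibits no protease: the 4 tissue inhibitors of metalloproteinases (*Timp1*, *Timp2*, *Timp3* and *Timp4*), the membrane-anchored inhibitor *Reck*, the serpins *Serpine2* and *Serpinf1*, and cystatin C (*Cst3*). They were chosen by name, as the rows of the deposited mouse matrix whose Ensembl identifiers carry these symbols. All 8 were found among its 22032 gene identifiers, and 7 of the 8 had a mean of at least 1 TPM (transcripts per 1000000 transcripts) over the samples, the filter for the test between stages.

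RNA was sequenced from chondrocytes of mouse knee cartilage at 2 stages, with 3 samples of each. The 3 adult samples came from male B6 mice 2 months old. The embryonic samples came from embryos at E16.5 by the study's text, although the sample labels give that stage as 16.5 wks, and neither source gives the strain or sex of the embryos. The sources name no altered gene and no agent at either stage. All samples were LIN-ALP-BMPR1B+ cells, which for the adult mice meant sorting without CD31, CD45, Ter119 and alkaline phosphatase (ALP) and with BMPR1B, a bone morphogenetic protein receptor used to enrich articular chondrocytes. The series calls them biological replicates, and how many animals made up a sample is not given in the sources used here.

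Cartilage is mostly matrix, and the enzymes that cut its collagens and aggrecan are held in check by inhibitors that the chondrocytes themselves secrete. The TIMPs plug the active site of matrix metalloproteinases (MMPs) and, most widely in the case of TIMP3, also of ADAM and ADAMTS enzymes, the aggrecanases among them. Serpins trap serine proteases by an irreversible change of shape, and cystatins block lysosomal cysteine proteases such as the cathepsins. Loss of inhibitor relative to enzyme is a long-standing theme in the study of cartilage breakdown.

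The values are TPM, which are corrected for transcript length, so levels can be compared between genes within a sample. TPM adds up to 1000000 in every sample and does not carry the number of reads behind a value, so no counting interval is given and each mean comes with the SD of 3 samples. Between 7314 and 8294 genes were listed at 0 in a sample. Between any pair of embryonic samples, Pearson's r of log2(TPM + 1) was 0.951 to 0.955. It was 0.907 to 0.935 for pairs of adult samples and 0.739 to 0.765 across stages. The sum of 8 chondrocyte markers was 21533 to 23096 TPM in embryonic and 8846 to 11850 TPM in adult cells. Of the 8, 5 were called lower in adult cells (*Matn3*, *Col9a1*, *Col11a2*, *Col2a1* and *Hapln1*, with log2 fold changes of -6.05, -5.48, -2.66, -1.73 and -0.72), *Comp* and *Sox9* were called higher (1.89 and 0.69) and *Acan* was not called. In adult cells *Matn3* was at 3.65 TPM or less, and the markers other than *Matn3* and *Col9a1* were at 345 TPM or more in each sample. *Bmpr1b*, the gene behind the sort, was at 16.4 to 20.3 TPM in embryonic cells and at 4.51, 18.5 and 13.4 TPM in adult cells. *Alpl*, which encodes ALP, was at 14.4 to 17.9 TPM in embryonic cells and at 32.7 to 38.6 TPM in adult cells, although the gate left out cells with ALP on their surface. It was called higher in adult cells (log2 fold change 1.13, limma adjusted p = 0.00292).

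In the adult chondrocytes 5 genes were higher, 0 were lower, and *Reck* and *Serpinf1* did not pass the test. Stages were compared with limma on log2(TPM + 1) over 13125 genes, and a gene is called where the Benjamini-Hochberg adjusted p is under 0.05. *Timp3*, *Serpine2* and *Cst3* rose by a mean of 14.2-fold, 14.1-fold and 12.8-fold in TPM, *Timp1* by 2.18-fold and *Timp2* by 1.31-fold. In the same fit 23.9% of all genes tested were called higher in adult cells and 21.4% lower, 45.3% in all. The median log2 fold change was 1.14 over the 7 genes tested and 0.16 over all genes tested. In the same 5 genes the 3 adult values all lay above the 3 embryonic values, which held for 30.7% of all genes tested, while the reverse held for 25.9% and either for 56.5%. *Timp3*, *Serpine2* and *Cst3* are among the 1.74% of all genes tested that were called and higher by more than 3 on the log2 scale, a limit chosen after their values were seen. In bulk samples such as these, fewer cells of a type and less RNA per cell cannot be told apart.

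**Figure D1:**
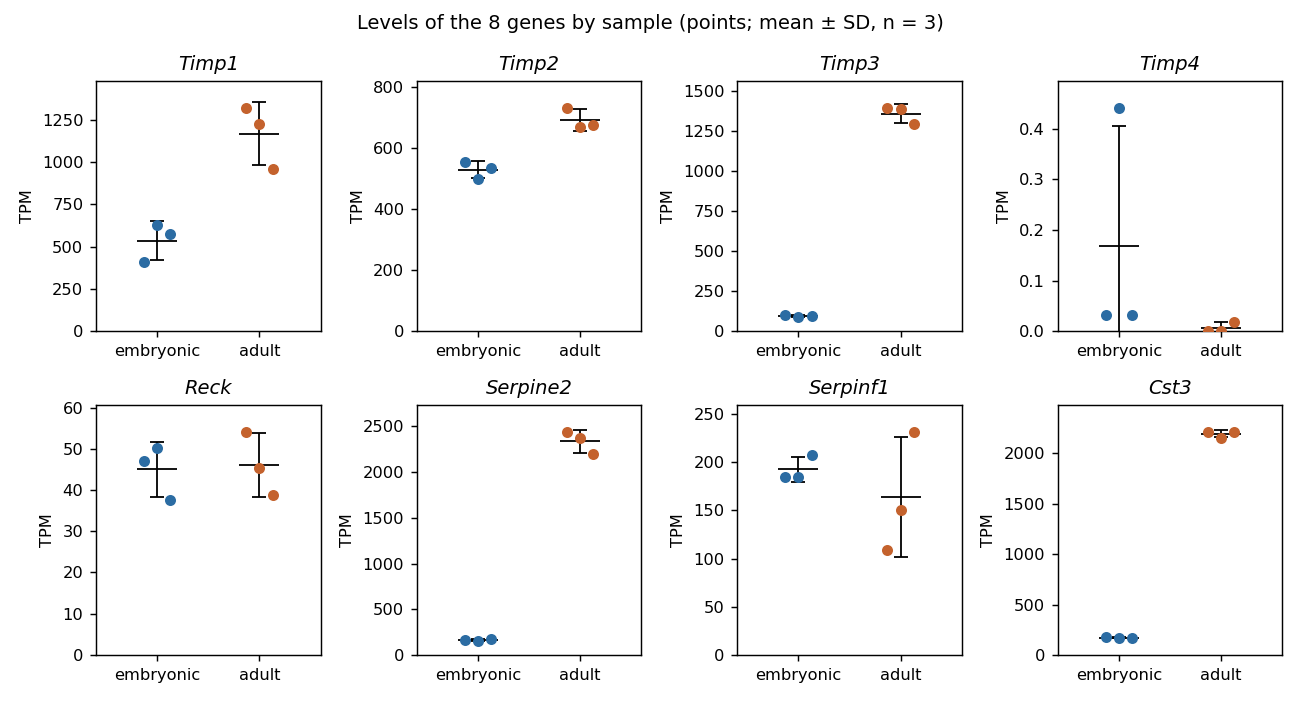
Level of each of the 8 genes in TPM (vertical axes, each starting at 0 with its own scale) in the 3 embryonic and 3 adult samples, with points for samples and a line with whiskers for the mean ± SD (the lower whisker of embryonic *Timp4* runs below the axis). *Timp3*, *Serpine2* and *Cst3* sit far apart between stages, *Timp1* and *Timp2* less so, and the stages overlap in *Reck* and *Serpinf1*.

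The reference sequence just upstream of 5 of these genes is shown for the 3 with the largest change, for *Timp1*, and for *Reck*, whose level did not pass the test. The windows are RefSeq's for GRCm38.p6 and reach 250 bases before the RefSeq start of each gene, printed 5′ to 3′ on the gene's strand and only up to the first base that GENCODE places in an exon. Capitals mark matches, on either strand, to 4 short motifs: TATAAA (the TATA box), GGGCGG (the core of the Sp1 box), TGANTCA (the AP-1 site) and CCAAT (the CCAAT box). The stretches are chrX:20869916-20870165 (+) for *Timp1*, chr10:86300162-86300371 (+) for *Timp3*, chr1:79858697-79858915 (-) for *Serpine2*, chr2:148875693-148875762 (-) for *Cst3* and chr4:43875280-43875529 (+) for *Reck*.
Timp1: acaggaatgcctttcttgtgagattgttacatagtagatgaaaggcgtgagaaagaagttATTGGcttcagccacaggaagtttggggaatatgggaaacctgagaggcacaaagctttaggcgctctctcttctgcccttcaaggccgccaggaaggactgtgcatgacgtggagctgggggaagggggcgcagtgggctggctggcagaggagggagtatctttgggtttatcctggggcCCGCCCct
Timp3: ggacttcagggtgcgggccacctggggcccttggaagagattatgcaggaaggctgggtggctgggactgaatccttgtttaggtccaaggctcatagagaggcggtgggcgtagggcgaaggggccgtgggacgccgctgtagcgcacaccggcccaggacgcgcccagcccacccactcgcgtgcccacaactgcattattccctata
Serpine2: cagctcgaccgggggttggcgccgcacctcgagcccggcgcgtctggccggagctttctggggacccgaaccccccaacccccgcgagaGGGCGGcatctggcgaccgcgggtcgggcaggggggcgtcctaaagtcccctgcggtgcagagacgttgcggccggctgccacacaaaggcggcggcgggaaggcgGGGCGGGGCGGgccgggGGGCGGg
Cst3: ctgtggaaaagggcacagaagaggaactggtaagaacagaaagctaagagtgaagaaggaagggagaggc
Reck: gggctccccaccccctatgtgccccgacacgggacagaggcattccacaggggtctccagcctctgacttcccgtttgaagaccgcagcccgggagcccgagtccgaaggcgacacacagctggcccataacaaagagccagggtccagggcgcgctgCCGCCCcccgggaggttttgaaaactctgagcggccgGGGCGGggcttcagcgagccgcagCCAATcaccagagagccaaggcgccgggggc

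Over the full 250 bases, none of the 8 genes had a match to TATAAA or TGANTCA, which 12.4% and 6.75% of all 32851 RefSeq windows of this length hold. GGGCGG, held by 32.7% of the windows, was found upstream of *Timp1*, *Timp2*, *Timp3*, *Reck*, *Serpine2* and *Cst3* and not of *Timp4* or *Serpinf1*. The stretches shown for *Timp1* and *Timp3* lie within *Syn1* and *Syn3*, and that for *Serpine2* lies between exons of the gene as GENCODE draws it, since longer transcripts start further upstream. *Serpine2* had 6 matches to GGGCGG, at 13 to 161 bases before the RefSeq start, in a window that is 78.8% G and C against a mean of 53.2% over all windows, and the matches nearest to the start fall in the part not printed. The single matches of *Timp3* and *Cst3* lie 15 and 67 bases before their RefSeq starts, inside what GENCODE draws as exon, so the stretches printed for them hold none. CCAAT, held by 33.8% of the windows, was found once each upstream of *Timp1*, *Timp2* and *Reck* and 3 times upstream of *Serpinf1*. No matches to different motifs overlapped, while a pair of the GGGCGG matches of *Serpine2* share a base. The windows of *Reck*, not called between stages, and of *Timp1*, called, thus hold the same pair of motifs.

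*Timp3* encodes the TIMP that binds to the extracellular matrix rather than diffusing away, and the one with the widest reach over ADAM and ADAMTS enzymes. It lies on chromosome 10 (chr10:86300372-86349506, plus strand, GRCm38), inside *Syn3*, a synapsin gene on the opposite strand. It measured 104, 90.5 and 91.7 TPM in embryonic cells and 1392, 1387 and 1289 TPM in adult cells. The stages are far apart and the samples of each stage lie close together. The log2 fold change was 3.82 (95% confidence interval 3.56 to 4.08, standard error 0.115, limma adjusted p = 1.4e-07). Ranked by TPM within a sample, it moved from place 1962 to 2237 among all genes in embryonic cells to place 59 to 70 in adult cells.

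*Syn3* and *Timp3* share 1733 exon bases on opposite strands, and whether the counting used the strand is not given in the sources used here, so reads there cannot be told apart. *Syn3* itself measured 0.191, 1.11 and 3.69 TPM in embryonic cells and 6.18, 9.38 and 3.68 TPM in adult cells.

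*Timp1* encodes the soluble TIMP that also binds the tetraspanin CD63 at the cell surface. It lies on the X chromosome (chrX:20870166-20874735, plus strand) within *Syn1*, with which it shares no exon bases. Its level was 408, 627 and 573 TPM in embryonic cells and 1322, 1225 and 961 TPM in adult cells. The lowest adult sample was above the highest embryonic sample, but the samples of a stage were spread more widely than those of *Timp3*. The log2 fold change was 1.14 (95% confidence interval 0.71 to 1.56, standard error 0.188, limma adjusted p = 0.00148). *Timp1* was already among the abundant transcripts of the embryonic cells, at place 234 to 373, and stood at place 72 to 117 in the adult cells.

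*Timp2* encodes the TIMP that, besides inhibiting MMPs, forms the complex with MMP14 in which the precursor of MMP2 is activated. It lies on chromosome 11 (chr11:118301069-118355740, minus strand). Embryonic cells were at 553, 499 and 534 TPM and adult cells at 731, 667 and 676 TPM. The groups do not overlap, yet the step between them is small. The log2 fold change was 0.39 (95% confidence interval 0.14 to 0.64, standard error 0.11, limma adjusted p = 0.0199). The call was lost under several alternatives: the limma adjusted p was 0.109 when TPM was rescaled by the median of ratios, which lowered the log2 fold change to 0.24, and 0.103 when the variance trend was left out. Without embryonic replicate 2 it was 0.072 and without embryonic replicate 3 it was 0.0647.

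*Timp4*, the TIMP best known from heart and fat, was near the floor of the matrix in these cells. It was listed at 0.0318, 0.441 and 0.0326 TPM in embryonic cells and at 0, 0 and 0.0191 TPM in adult cells. With a mean under 1 TPM it was not tested, and no fold change is given. The gene (chr6:115241892-115252205, minus strand) lies inside *Syn2* on the opposite strand, with 90 shared exon bases, and *Syn2* was itself at 2 TPM or less in each sample.

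The makeup of the TIMP transcripts therefore differed between stages. Of the summed TPM of the 4 *Timp* genes, *Timp3* held 9.76%, 7.44% and 7.65% in embryonic cells and 40.4%, 42.3% and 44% in adult cells. *Timp2* went the other way, from 51.9%, 41% and 44.6% to 21.2%, 20.3% and 23.1%. In *Timp1* the shares were 38.3%, 51.5% and 47.8% in embryonic cells and 38.4%, 37.4% and 32.9% in adult cells. The stages are apart for *Timp3* and *Timp2* and overlap for *Timp1*, whose share in the highest adult sample was just above that in the lowest embryonic sample. The level of *Timp3* relative to *Timp2* went from 0.172 to 0.188 in embryonic cells to 1.9 to 2.08 in adult cells. In the embryonic cells *Timp1* and *Timp2* were the leading TIMPs and *Timp3* was lower than both. In the adult cells the ranges of *Timp3* and *Timp1* overlapped at the top and *Timp2* was below both. Within each adult sample *Timp3* was above *Timp1*, with ratios of 1.05, 1.13 and 1.34. Summed over the 4 genes, embryonic cells had 1160 ± 82.8 TPM (SD, n = 3) and adult cells 3217 ± 265 TPM (SD, n = 3), 2.77-fold more. These shares and sums are given as values, with no test.

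**Figure D2:**
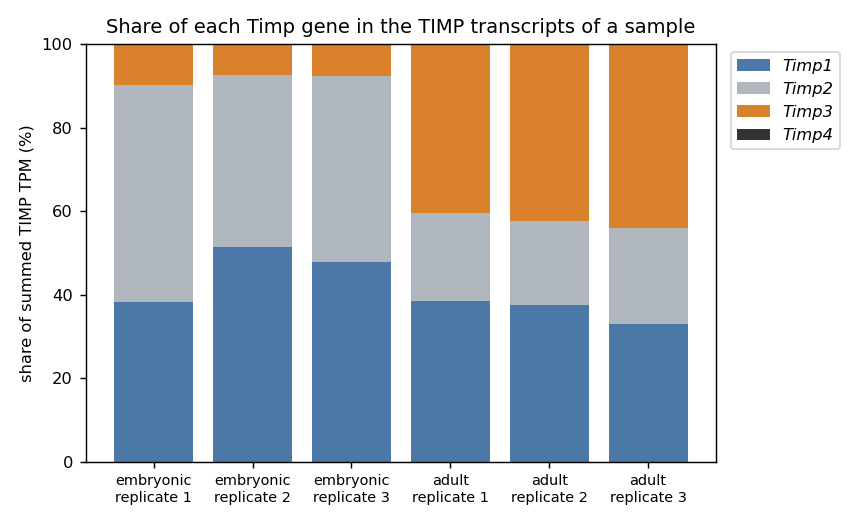
Share of each *Timp* gene in the summed TPM of *Timp1* to *Timp4* (vertical axis, percent) in each of the 6 samples (one bar per sample). *Timp3* fills 7.44% to 9.76% of the embryonic bars and 40.4% to 44% of the adult bars, *Timp2* shrinks accordingly, and *Timp4* is too small to be seen.

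*Reck* encodes a glycosylphosphatidylinositol-anchored protein that inhibits several MMPs at the cell surface and, with the receptor ADGRA2, serves as a coreceptor for WNT7 ligands. It lies on chromosome 4 (chr4:43875530-43944806, plus strand). The values were 47.1, 50.3 and 37.6 TPM in embryonic cells and 54.2, 45.3 and 38.8 TPM in adult cells. The stages overlap throughout. The log2 difference was 0.03 with a 95% confidence interval of -0.42 to 0.48 (limma adjusted p = 0.902), so a change of the size seen in *Timp1* lies outside the interval while one of the size of *Timp2* lies within it. Its sign turned under 4 of the 16 alternatives, among them rescaling by the median of ratios (-0.11).

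*Serpine2* encodes protease nexin-1, a secreted serpin that inhibits thrombin, urokinase and trypsin-like enzymes when bound to glycosaminoglycans, and is cleared with its prey by the receptor LRP1. It lies on chromosome 1 (chr1:79794197-79861180, minus strand). Embryonic cells measured 168, 153 and 177 TPM and adult cells 2444, 2375 and 2200 TPM. No adult sample came near the embryonic range, and the 3 values of each stage were close. The log2 fold change was 3.81 (95% confidence interval 3.55 to 4.07, standard error 0.114, limma adjusted p = 1.4e-07). In the adult samples it was the most abundant of the 8 transcripts together with *Cst3*, at place 29 to 37 among all genes, against place 1063 to 1217 in embryonic cells.

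*Cst3* encodes cystatin C, a small secreted protein that inhibits cathepsins B, H, K, L and S and is widely used in blood as a measure of kidney function. It lies on chromosome 2 (chr2:148871722-148875692, minus strand). Its level was 175, 169 and 171 TPM in embryonic cells and 2210, 2152 and 2216 TPM in adult cells. It varied least within a stage of the 7 genes tested, with an SD on the log2 scale of 0.03 in the embryonic and 0.02 in adult cells. The log2 fold change was 3.67 (95% confidence interval 3.43 to 3.90, standard error 0.103, limma adjusted p = 1.1e-07). *Cst3* moved from place 1076 to 1097 to place 34 to 37.

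Summed markers of some other cell types also stood apart between stages, and they are given beside the 3 large changes. The summed TPM of 7 leukocyte markers was 5.34 to 13.7 in embryonic cells and 19 to 75.2 in adult cells, with *C1qa* at 0 in all 6. Of the 7, only *Cd68* was called higher, *Lyz2* and *Cd52* were not called and the rest were not tested. *Cd52* was above 0 in adult replicate 1 only (8.55 TPM), and *Csf1r* and *Adgre1* had means under 1 TPM at both stages. *Lyz2*, the macrophage lysozyme gene, was at 30.7, 0.706 and 8.14 TPM in adult cells, *Ptprc*, which encodes CD45, at 2.29, 0 and 1.03 TPM, and *Cd68* at 33.3, 17.2 and 27.5 TPM, the last above all embryonic values (at most 12.6 TPM). The part of leukocytes in the change of *Timp3*, *Serpine2* and *Cst3* was not tested. The summed TPM of 4 osteoblast markers was 11.5 to 46.4 in the embryonic and 252 to 396 in adult cells, led by *Ibsp* at 316, 235 and 308 TPM. Of these 4, *Ibsp* and *Bglap* were called higher, *Dmp1* was called lower (10.6, 16.3 and 10.1 TPM against 0.0611, 0.0633 and 3.51 TPM) and *Sp7* was not called. The part of osteoblasts in the change of the 3 genes was not tested either. Of the 9 fibroblast and tendon markers, *Dcn*, the gene of the proteoglycan decorin, rose (from 217 to 326 TPM up to 5026 to 6348 TPM) and 5 fell. Their sum was 12860 to 15338 TPM in embryonic and 6786 to 7534 TPM in adult cells. The summed markers of endothelial, mural, erythroid, skeletal muscle, adipocyte and skin cells overlapped between stages, none of them above 68.8 TPM, with *Adipoq*, *Cfd*, *Krt5* and *Krt14* at 0 in all 6 samples. Single genes of these lists did differ: endothelial *Tek* and mural *Rgs5* and *Acta2* were called lower, and mural *Pdgfrb* was called higher. No gene of the remaining lists was called.

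*Serpinf1* encodes pigment epithelium-derived factor, which has the fold of a serpin but inhibits no protease and is known as a factor against blood vessel growth and for its part in bone mineralization. It lies on chromosome 11 (chr11:75409769-75422701, minus strand). Embryonic cells were at 185, 185 and 208 TPM and adult cells at 109, 151 and 232 TPM. The adult samples spread on both sides of the embryonic ones. The log2 difference was -0.30 with a 95% confidence interval of -0.85 to 0.26 (limma adjusted p = 0.347). The value rests on single adult samples: without adult replicate 3 it was -0.58 (limma adjusted p = 0.0305), and without adult replicate 1 it was -0.04 (limma adjusted p = 0.893).

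Among the fibroblast and tendon markers, *Col1a1*, *Col1a2* and *Col3a1* ran in the same order as *Serpinf1* over the adult samples, lowest in replicate 1 and highest in replicate 3. So did *Mmp2*, among other proteases. *Mmp2*, a gelatinase gene, was at 69.9, 186 and 297 TPM. *Col1a1*, encoding a chain of type I collagen, was at 170, 603 and 637 TPM, and *Col3a1*, encoding type III collagen, at 148, 312 and 395 TPM. The order did not extend to *Dcn*, *Pdgfra*, *Thy1*, *Scx*, *Tnmd* or *Mkx*, the other markers of that list. These genes were set beside *Serpinf1* after their values were seen, and the part of fibroblast-like cells in its spread was not tested.

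**Figure D3:**
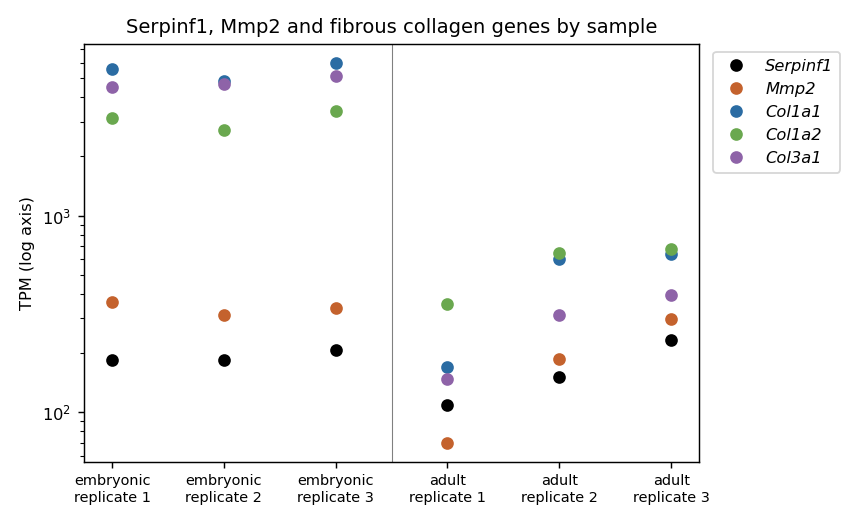
TPM (vertical axis, log scale) of *Serpinf1*, *Mmp2*, *Col1a1*, *Col1a2* and *Col3a1* in the 3 embryonic and 3 adult samples. *Serpinf1* stays between 109 and 232 TPM in all 6 samples while the 3 collagen genes are lower in every adult sample than in any embryonic one, and all 5 genes are lowest in adult replicate 1.

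Set in order of mean TPM, the embryonic cells had *Timp1* (536) and *Timp2* (529) first, with overlapping ranges, then *Serpinf1* (193), then *Cst3* (172) and *Serpine2* (166), which overlap, then *Timp3* (95.4), *Reck* (45) and *Timp4* (0.169). In the adult cells the order was *Serpine2* (2340) and *Cst3* (2192), which overlap, then *Timp3* (1356) and *Timp1* (1169), which overlap, then *Timp2* (691), *Serpinf1* (164), *Reck* (46.1) and *Timp4* (0.00636). Within each adult sample *Timp3* was nonetheless above *Timp1*. Of all TPM, the 8 genes together took up 0.164% to 0.179% in embryonic cells and 0.761% to 0.826% in adult cells, 4.59-fold more in the mean.

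Genes whose pattern over the 6 samples was most like that of a TIMP were sought by Pearson's r of log2(TPM + 1), as a description. Nearest to *Timp3* were *Dgkq*, *Trappc13* and *Slc48a1* (r = 0.9999, 0.9996 and 0.9993), and 194 genes had an r over 0.99 with it, a step between stages being common. Pearson's r takes no account of the size of that step. *Trappc13* was at 23.3 to 24.4 TPM in embryonic and 51.1 to 54.1 TPM in adult cells. *Slc48a1* was at 5.26 to 6.61 TPM in embryonic and 373 to 412 TPM in adult cells. Nearest to *Timp1* were *Lynx1*, *Sash1* and *Eml6* (r = 0.9992, 0.9926 and 0.9926), with 7 genes over 0.99. Nearest to *Timp2* were *Parp11*, *Trim46* and *Tma7* (r = 0.9979, 0.9971 and 0.9959), with 22 over 0.99. *Lynx1* was at 2.66, 7.21 and 5.59 TPM in embryonic cells and 25.5, 23 and 14.8 TPM in adult cells, and so repeats the order of the samples seen in *Timp1* at a far lower level.

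Other inhibitors of the same classes did not move as a block. Of 39 listed, 27 were tested, 8 were higher, 8 lower and 11 not called, against 23.9% higher and 21.4% lower over all genes tested. The median of their log2 fold changes was 0.17, against 0.16 over all genes tested. Among the other cystatins and the calpain inhibitor all 3 tested genes were higher: *Cst6*, a secreted inhibitor of legumain and cathepsins, was at 0.444 TPM or less in embryonic cells and at 7.1, 7.58 and 5.17 TPM in adult cells (2.69, limma adjusted p = 0.00135), *Cstb*, which acts inside cells, rose by 0.67 and *Cast*, encoding calpastatin, by 0.59 on the log2 scale. Among the other serpins 3 of 10 tested were higher. *Serpinb6a*, an intracellular serpin, rose 7.52-fold, from 126, 140 and 140 TPM to 1125, 865 and 1060 TPM (limma adjusted p = 1.5e-06). *Serpinb9*, which inhibits granzyme B, rose by 1.94 on the log2 scale at a low level.

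The 2 serpins that fell were *Serpinh1* (-1.21), which chaperones collagen and inhibits no protease, and *Serpinb2* (-2.23), listed at 0 in all 3 adult samples. Among the other metalloproteinase and broad inhibitors 1 of 5 tested was higher and 3 lower, against 23.9% higher and 21.4% lower over all genes tested. *Cd109*, an anchored relative of alpha-2-macroglobulin, rose 5.35-fold, but *Tfpi2*, a Kunitz-type inhibitor held in the matrix, and the testican genes *Spock3* and *Spock2* fell (-3.47, -3.00 and -2.57 on the log2 scale). The Kunitz-type, WAP and like inhibitors had 1 higher and 3 lower of 9 tested, to be read beside the same shares over all genes. *Slpi*, an inhibitor of leukocyte elastase, rose from 4.14, 4.23 and 3.91 TPM to 36.6, 32.1 and 253 TPM (limma adjusted p = 0.00241), whereas *Tfpi*, *Pi16* and *Spint2* fell (-3.73, -2.65 and -1.49).

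The proteases that these inhibitors act on went both ways. Of 38 listed, 31 were tested, 11 were higher and 11 lower, against 23.9% higher and 21.4% lower over all genes tested. Their median log2 fold change was 0.09. Among the metalloproteinases 7 of 19 tested were higher and 9 lower. *Mmp3*, encoding stromelysin-1, measured 7.76, 7.58 and 13.2 TPM in embryonic cells and 6516, 4182 and 7697 TPM in adult cells (limma adjusted p = 1.1e-07). *Mmp13*, a collagenase gene, rose by 4.28 and *Mmp10* by 2.57 on the log2 scale, while *Mmp11*, *Adam12* and *Mmp16* fell (-3.93, -3.04 and -2.71). *Mmp10* was at a low level, 0, 0 and 0.247 TPM in embryonic cells and 0.537, 10.2 and 14.1 TPM in adult cells.

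Against these enzymes the *Timp* genes stood as follows. The summed TPM of the 4 *Timp* genes over that of the 17 *Mmp* genes listed was 0.989, 1.35 and 1.17 in embryonic cells and 0.502, 0.698 and 0.345 in adult cells. Without *Mmp3*, the same ratio was 0.996, 1.36 and 1.19 in embryonic cells and 9.85, 6.33 and 3.68 in adult cells. A single gene therefore turned the direction of the ratio, and its transcript alone exceeded the 4 *Timp* genes together in each adult sample. Without *Mmp3* the summed *Mmp* TPM was 1069, 896 and 1011 in embryonic cells and 350, 518 and 794 in adult cells. Ratios of transcripts say nothing of the amounts of protein or of active enzyme, since MMPs are made as inactive precursors.

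**Figure D4:**
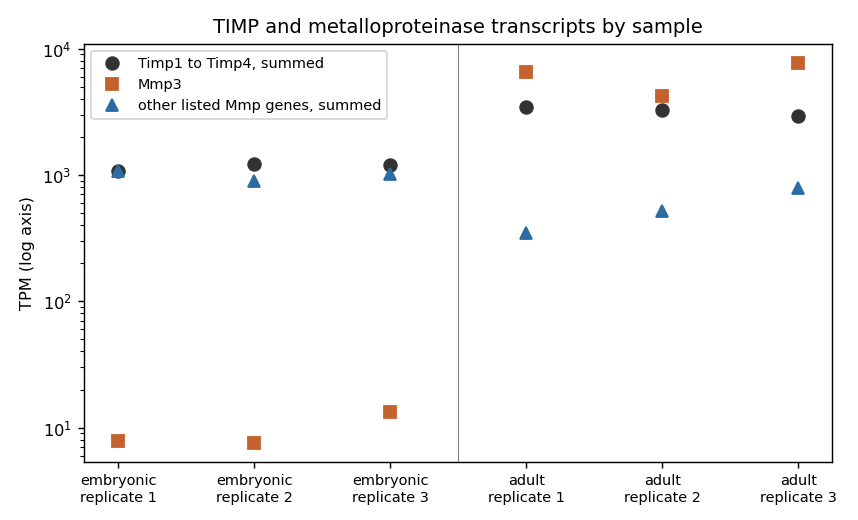
Summed TPM of *Timp1* to *Timp4* (circles), TPM of *Mmp3* (squares) and summed TPM of the other listed *Mmp* genes (triangles) on a log axis in each of the 6 samples. *Mmp3* goes from 7.58 to 13.2 TPM in embryonic cells to 4182 to 7697 TPM in adult cells, above the *Timp* sum, while the other *Mmp* genes end below it.

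The pairs of inhibitor and enzyme that follow were chosen after their values were seen. *Mmp14*, the membrane enzyme with which TIMP2 forms its complex, was at 522, 428 and 496 TPM in embryonic cells and 73.6, 79.4 and 172 TPM in adult cells (-2.25, limma adjusted p = 3.7e-04). The ratio of *Timp2* to *Mmp14* was 1.06, 1.16 and 1.08 in embryonic cells and 9.94, 8.4 and 3.93 in adult cells. *Adam17*, whose sheddase is a target of TIMP3, rose from 28, 27.9 and 34.1 TPM to 84.5, 88.1 and 76.7 TPM, and *Timp3* relative to it went from 2.69 to 3.71 up to 15.8 to 16.8. *Adamts5*, encoding an aggrecanase, rose from 15.8, 9.94 and 20.6 TPM to 124, 40 and 109 TPM, so that the ratio of *Timp3* to it was 4.46 to 9.1 in the embryonic and 11.2 to 34.7 in adult cells. The stages do not overlap in any of these 3 ratios, although the last one is wide in adult cells, being highest in replicate 2, where *Adamts5* was lowest. *Timp1* over *Mmp3* went the other way, from 52.6, 82.7 and 43.6 in embryonic cells to 0.203, 0.293 and 0.125 in adult cells.

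The serine protease targets of *Serpine2* were few. *Plau*, encoding urokinase, fell from 84, 56.8 and 70.5 TPM to 17.1, 9.52 and 17.9 TPM (log2 fold change -2.20, limma adjusted p = 3.4e-04). *Serpine2* over *Plau* was 2, 2.7 and 2.51 in embryonic cells and 143, 249 and 123 in adult cells, 71.5-fold more in the mean. *Plat*, encoding tissue plasminogen activator, was not called, *Plg* was listed at 0 in all 6 samples and *F2*, encoding thrombin, was under 1 TPM in each.

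Of the cysteine proteases that cystatin C can inhibit, or their relatives, 10 of 11 listed were tested, 4 were higher and 1 lower. The shares over all genes tested were 23.9% higher and 21.4% lower. *Ctsh* rose 7.12-fold, from 17.1, 15.6 and 16.1 TPM to 97.2, 115 and 135 TPM (limma adjusted p = 1.1e-05). *Ctsk*, the collagen-degrading cathepsin of osteoclasts, rose 4.03-fold (limma adjusted p = 3.2e-04) and *Ctsf* 2.25-fold, while *Ctsc*, an activator of other proteases, fell by 3.13 on the log2 scale. The ratio of *Cst3* to the summed TPM of the 11 genes was 0.279, 0.251 and 0.239 in embryonic cells and 2.26, 2.37 and 1.59 in adult cells. In the mean that sum was 1.62-fold higher in adult cells, against 12.8-fold for *Cst3* itself.

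**Figure D5:**
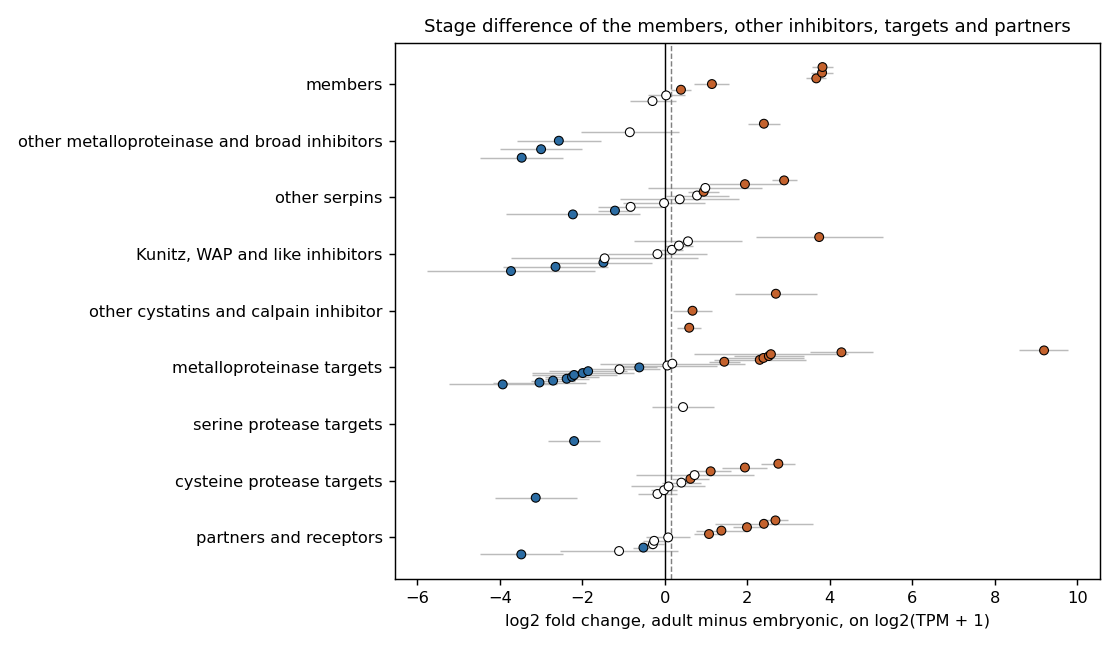
Log2 fold change (adult minus embryonic, on log2(TPM + 1)) with its 95% confidence interval for each tested gene of the 8 (top line, members) and of the other lists, filled orange where called higher, blue where called lower and white where not called. The dashed line marks the median of all genes tested, 0.16, and the top line has 3 genes near 4, where few genes of the other lists lie.

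Receptors and partners of the 8 gene products were also read. Of 14 listed, 11 were tested, 5 were higher, 2 lower and 4 not called, against 23.9% higher and 21.4% lower over all genes tested. The median of the list was 0.08 on the log2 scale. *Lrp1*, the endocytic receptor that takes up complexes of *Serpine2* and also TIMP3, rose from 272, 187 and 226 TPM to 896, 892 and 911 TPM (limma adjusted p = 1.9e-05). *Plxdc2*, encoding a candidate receptor of the *Serpinf1* product, went from 81.2, 84.9 and 69.6 TPM to 562, 504 and 458 TPM (limma adjusted p = 2.2e-06), and its relative *Plxdc1* rose by 2.40 on the log2 scale from under 1 TPM. *Adgra2*, the partner of *Reck*, fell from 30.9, 27 and 36.2 TPM to 2.02, 0.609 and 3.94 TPM (limma adjusted p = 3.6e-04), whereas *Reck* was 0.03 apart between stages. The WNT7 genes that this pair serves, *Wnt7a* and *Wnt7b*, had means under 1 TPM over the 6 samples and were not tested. *Itgb1*, the integrin subunit shared by the receptor that TIMP2 binds, fell by 0.52 on the log2 scale.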

How the data were processed

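Chondrocytes of 3 embryonic and 3 adult mouse samples were profiled by RNA-seq. The authors used RSEM on reads mapped to GRCm38 to estimate TPM, and the deposited values are log2(TPM + 1) of each gene. Library kits differ between the labels (Kapa mRNA-Seq) and the methods (Nugen Ovation with Kapa), and RefSeq is named as the annotation while genes are listed by Ensembl identifiers. The version of RSEM and the use of strand are not given in the sources used here. No column of values was left out (0).

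Of 22032 identifiers, 21902 had a symbol in GENCODE M21, which also gave positions. RefSeq GRCm38.p6 gave the upstream windows, all 8 genes being matched. Stages were compared with limma 3.58.1 in R 4.3.3 (lmFit, eBayes with a variance trend, stage as the only term). The pseudocount was 1, the filter was a mean of at least 1 TPM, and Benjamini-Hochberg adjustment ran over all genes tested. The code was checked on simulated normal values with few changed genes, which does not test the calls made here. EBSeq, named in the methods, was not used here, since the values are not counts. P-values set the stage difference against the spread between samples of a stage, moderated over all genes tested. How far that spread reflects differences between animals is unknown, since the number of animals per sample is not given. A fold change on log2(TPM + 1) understates that of low genes.

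The 8 genes and the lists of inhibitors, proteases, partners and markers were chosen with earlier results of these data known. The alpha-1 antitrypsin paralogs, which share reads, were left out. Named from each list were up to 3 genes per direction with the largest change among called genes whose stages do not overlap, every gene overlapping a *Timp*, and the 3 genes most like each tested *Timp*; 2 genes are not reported here. *Mmp2*, *Mmp14*, *Adam17*, *Adamts5*, *Plat*, *Lyz2*, *Ptprc* and *Cd68* were named after their values were seen. Each choice was varied alone: the pseudocount (0.1), the filter (none, or 5 TPM), the scaling (quantiles, the median of ratios, or TPM recomputed after dropping the 20 most abundant genes), the variance model (untrended, or robust), a block for the replicate number, the threshold (0.01) and the samples (leaving out 1 at a time). Other steps used Python 3.11.15 with numpy 2.4.6, pandas 2.3.3 and, for the plots, matplotlib 3.10.9.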

Additional observations from a re-analysis of the deposited data

How the results depend on the processing

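The changes of *Timp1*, *Timp3*, *Serpine2* and *Cst3* kept their direction and their side of the threshold under all 16 alternatives, with log2 fold changes of 0.95 to 1.37, 3.67 to 4.01, 3.66 to 3.91 and 3.52 to 3.77. *Timp2* lost its call with the median of ratios (0.24), without the variance trend (0.39), at an adjusted p under 0.01 (0.39) and with the replicate block (0.39, limma adjusted p = 0.0603), and lay between 0.34 and 0.42 with each sample left out. *Reck* changed sign with quantile normalization (-0.03) and the median of ratios (-0.11), and ran from -0.09 to 0.15 with each sample left out. *Serpinf1* ran from -0.58 to -0.04 there. The adult share of *Timp4* was 0.00173% under quantile normalization. At an adjusted p under 0.01, 3718 of all genes were called. The median of all genes was 0.03 with the median of ratios (2613 higher and 3238 lower), 0.09 with quantile normalization and 0.25 after dropping the 20 most abundant genes (3498 higher and 2518 lower), against 0.16. Counts called among the 8 genes, the other inhibitors, the proteases and the partners stayed within 1.5 times under each alternative. Over the genes that passed the filter, no pairing of the samples by replicate number was seen. Correlations of deviations were -0.009, -0.017 and -0.022 for like numbers and -0.002 to 0.016 for unlike numbers. The block, with 5430 genes called, changed no other call among the 8. TPM near 0 limits what can be said of *Timp4*. The causes of these shifts were not tested.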

Other observations

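The genes that overlap a *Timp* in the annotation were read alongside them, as values only. *Syn1*, the synapsin gene around *Timp1*, was at 8.78, 11.7 and 15.6 TPM in embryonic cells and 16.1, 25.1 and 25.8 TPM in adult cells (log2 difference 0.85, limma adjusted p = 0.0529). Its highest adult sample was replicate 3, where *Timp1* was lowest. *Syn3*, around *Timp3*, differed by 1.63 on the log2 scale (limma adjusted p = 0.0501), and its value in adult replicate 3 (3.68 TPM) fell within the embryonic range. *Cep295nl*, within *Timp2* on the same strand, was at 14.9, 6.5 and 9.72 TPM and at 15.5, 12.6 and 32.8 TPM (limma adjusted p = 0.131). None of these 3 tested genes passed the threshold, and *Syn2*, around *Timp4*, was not tested.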
